A study of Mus musculus with 3 samples.

Results

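The aminoacyl-tRNA synthetases are described here in tdTomato-positive cells sorted from the mouse hippocampus. Members were the protein-coding genes of the count table whose GENCODE vM21 symbol is 1 letter followed by ars, with or without a final 1 or 2, together with Eprs, Farsa, Farsb and Tarsl2. The rule found 38 genes among 52636 in the table, and it used names only and no measured value. By role, 19 encode cytosolic enzymes or subunits, 17 encode mitochondrial enzymes and 2, Gars and Kars, encode enzymes that work in both compartments. The samples were 3 biological replicates of a single group, so there was no treated or mutant group to compare. The mice were C57BL/6J males at postnatal day 28 to 32 that carried Camk2a-Cre +/- and Ai14 +/-, a Cre-dependent tdTomato reporter, and each replicate pooled the hippocampi of 2 to 4 mice. Camk2a is a gene of excitatory forebrain neurons, and its promoter drives Cre in this line. Tissue was digested with papain, live tdTomato-positive cells were collected by fluorescence-activated cell sorting (FACS), and poly(A) RNA was sequenced.

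Each aminoacyl-tRNA synthetase attaches an amino acid to its matching tRNAs, the step that fixes the reading of the genetic code. Mammalian cells keep largely separate sets of nuclear genes for protein synthesis in the cytosol and in mitochondria, and the mitochondrial set serves the few proteins that the mitochondrial genome encodes. Several cytosolic synthetases are held together with scaffold proteins in a multisynthetase complex. Inherited variants of many synthetases cause peripheral neuropathy, leukodystrophy, hearing loss or ovarian failure.

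Assigned counts totalled 48159841, 25686630 and 15833075 in replicates 1, 2 and 3, with median-of-ratios size factors of 1.78, 0.963 and 0.592. The labels call the cells CA1 pyramidal neurons. All 8 CA1 markers had at least 1 count per 1000000 counts (CPM) in each replicate, with a list median of 242 ± 8.08 transcripts per 1000000 (TPM; SD, n = 3). The 4 dentate granule markers, 8 oligodendrocyte markers and 7 astrocyte markers had medians of 163 ± 9.55, 60.9 ± 11.7 and 16.1 ± 4.87 TPM, so the cells are called tdTomato-positive cells below. The interneuron marker Slc32a1 had 19, 0 and 0 counts in replicates 1, 2 and 3. TPM here was computed over nuclear protein-coding genes and is a level per length of merged exons. In RNA from many cells, fewer cells of a type and less RNA per cell cannot be told apart.

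All 38 synthetases had at least 1 CPM in each of the 3 replicates, and all 38 also had at least 5 CPM. Of the 21845 nuclear protein-coding genes outside the family, 56.9% reached 1 CPM and 47.3% reached 5 CPM in each replicate. The fewest counts were those of Ears2 and Wars2, the mitochondrial glutamyl- and tryptophanyl-tRNA synthetases. Ears2 had 380, 186 and 121 counts in replicates 1, 2 and 3, for which counting error alone gives 9.09% in replicate 3, and Wars2 had 449, 149 and 135 counts. Apart from Lars2, the mitochondrial leucyl-tRNA synthetase, levels spanned 7.84 ± 1.88 TPM for Wars2 to 234 ± 9.17 TPM for Nars (SD, n = 3). Detected nuclear protein-coding genes had a median of 37.5 ± 0.815 TPM.

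Nars, the cytosolic asparaginyl-tRNA synthetase, was the most abundant cytosolic synthetase mRNA. It had 245, 229 and 229 TPM in replicates 1, 2 and 3, ranked 783 by mean level among nuclear protein-coding genes, and lies on chromosome 18 of GRCm38 from 64499665 to 64516557 on the minus strand. Hars for histidine, Sars for serine and Wars for tryptophan followed with 130 ± 8.42, 130 ± 0.538 and 119 ± 3.90 TPM (SD, n = 3). These neighbours overlapped between replicates, Hars with Sars and with Wars, whereas Nars lay above all other cytosolic enzymes in every replicate. The order below Nars depends on the gene length. With the length of the longest coding transcript, capped at the merged exons, Nars had 167 ± 7.42 TPM and Sars 134 ± 1.23 TPM. Farsa, Yars, Wars, Eprs and Hars then had 124 ± 5.58, 107 ± 3.99, 104 ± 3.94, 102 ± 3.74 and 93.0 ± 6.36 TPM. Wars is known in other cells for its induction by interferon, and Yars and Wars yield fragments with signalling roles.

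The middle of the cytosolic set was narrow. From Farsb down to Cars, 12 genes had mean levels between 97.9 and 47.1 TPM. Mars for methionine had 80.3 ± 3.93 TPM, Yars for tyrosine 73.5 ± 3.08 TPM, Vars for valine 71.0 ± 3.37 TPM and Lars for leucine 68.4 ± 8.72 TPM. Aars for alanine, Rars for arginine, Iars for isoleucine, Dars for aspartate and Tars for threonine had 61.3 ± 4.84, 59.7 ± 2.15, 59.4 ± 3.66, 57.3 ± 2.59 and 53.7 ± 2.59 TPM (SD, n = 3). Many neighbours in this order overlapped between replicates, and their order within it cannot be read.

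Per merged-exon length, the lowest 3 cytosolic mRNAs were Eprs, Qars and Tarsl2. Eprs encodes a single protein that charges both glutamate and proline tRNAs, and had 39.0, 39.8 and 37.2 TPM in replicates 1, 2 and 3. Qars for glutamine had 36.2, 35.1 and 33.6 TPM, below Eprs in each replicate. Tarsl2, a second cytosolic threonyl-tRNA synthetase, had 24.2, 23.6 and 20.9 TPM, against 56.4, 53.6 and 51.2 TPM for Tars. Cars for cysteine, with 47.1 ± 2.35 TPM, stood just above these genes. The place of Eprs depends on its length, since its merged exons span 18102 bp and its longest coding transcript 4906 bp. With the length of the longest coding transcript, capped at the merged exons, Eprs had 102 ± 3.74 TPM, and the lowest cytosolic mRNAs were Tarsl2, Tars and Lars with 34.6 ± 2.76, 38.4 ± 2.05 and 48.8 ± 6.04 TPM (SD, n = 3).

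Gars and Kars, the glycyl- and lysyl-tRNA synthetases, each supply the cytosolic and the mitochondrial enzyme from a single gene. Gars, a gene of inherited motor neuropathy, had 158, 138 and 145 TPM in replicates 1, 2 and 3. Kars had 51.8, 46.6 and 44.0 TPM. Per merged-exon length, Gars was thus above every cytosolic enzyme but Nars in each replicate, and Kars was within the lower part of the cytosolic range.

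**Figure D1:**
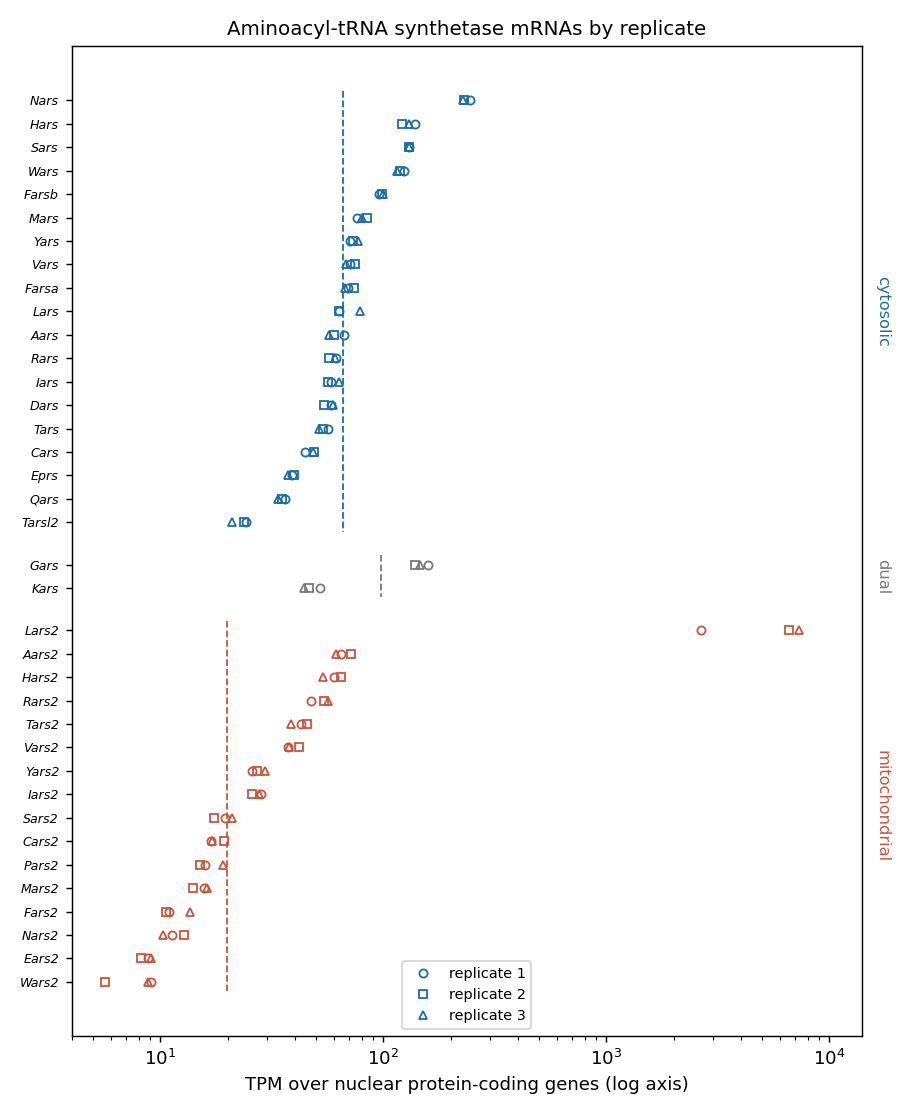
TPM of 37 of the 38 synthetase mRNAs on a log axis, with 1 symbol per replicate (n = 3), by compartment and falling mean level. Dashed lines are the medians of the full sets, 65.8 TPM for cytosolic, 97.4 TPM for dual and 19.9 TPM for mitochondrial enzymes, and Lars2 stands apart at 2656, 6552 and 7278 TPM.

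Mitochondrial synthetase mRNAs were lower as a set than cytosolic ones. The cytosolic median was 66.6, 63.4 and 67.4 TPM in replicates 1, 2 and 3, against 19.5, 19.2 and 20.9 TPM for the mitochondrial set. The sets did not overlap in their medians, and 17 of 19 cytosolic against 6 of 17 mitochondrial members exceeded the median of mean levels over detected nuclear protein-coding genes, 37.6 TPM. The difference of medians of log2(TPM + 1), cytosolic minus mitochondrial, was 1.68 ± 0.04 (SD, n = 3) and positive in 3 of 3 replicates. An exact two-sided sign-flip permutation test over the replicates gave p = 0.25, the smallest value that 3 replicates allow, and 0.33 after Benjamini-Hochberg adjustment over the 4 differences of this kind. The difference was 1.14 with the mean of each set in place of the median and 1.19 with CPM in place of TPM.

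Below Lars2, the mitochondrial set was led by Aars2, Hars2 and Rars2 per merged-exon length. Aars2, the mitochondrial alanyl-tRNA synthetase and a gene of leukodystrophy with ovarian failure and of cardiomyopathy, had 64.4, 71.7 and 61.4 TPM in replicates 1, 2 and 3. Hars2, a gene of hearing loss with ovarian failure, had 60.2, 64.4 and 53.8 TPM, and Rars2, a gene of pontocerebellar hypoplasia, had 47.2, 54.4 and 56.7 TPM. Their ranges overlapped, Rars2 with Hars2 and Hars2 with Aars2. Tars2 had 42.2 ± 3.37 TPM, Vars2 38.9 ± 2.52 TPM, Yars2 27.4 ± 1.90 TPM and Iars2 27.3 ± 1.33 TPM (SD, n = 3). Under the capped transcript length this order changed, with 64.7 ± 5.29 TPM for Tars2, 55.9 ± 4.98 for Rars2, 54.5 ± 4.98 for Hars2, 48.1 ± 3.47 for Cars2 and 47.0 ± 3.79 for Aars2.

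The remaining mitochondrial mRNAs were below 20 TPM on average per merged-exon length. Sars2, Cars2, Pars2 and Mars2 had 19.3 ± 1.77, 17.7 ± 1.30, 16.7 ± 2.20 and 15.3 ± 1.09 TPM (SD, n = 3). Fars2, Nars2 and Ears2 had 11.7 ± 1.67, 11.4 ± 1.29 and 8.71 ± 0.481 TPM. Wars2 was the lowest member and the most variable one after Lars2, with 9.06, 5.67 and 8.80 TPM in replicates 1, 2 and 3. It was lower in replicate 2 than in the other replicates.

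For 17 amino acids the cytosolic and the mitochondrial enzyme come from separate genes, with Eprs standing for both glutamate and proline and Farsa standing for phenylalanine. The cytosolic mRNA was higher in each replicate for 15 of the 17. Per merged-exon length, the widest gap was for asparagine, with a log2 difference of 4.25 ± 0.16 (SD, n = 3). Nars had 245, 229 and 229 TPM against 11.3, 12.8 and 10.2 TPM for Nars2. Tryptophan followed at 3.79 ± 0.33, then serine at 2.69 ± 0.13, phenylalanine at 2.49 ± 0.24 and methionine at 2.32 ± 0.16. Within this group of wide gaps, asparagine overlapped with tryptophan between replicates, serine with phenylalanine and phenylalanine with methionine. The order of these neighbours cannot be read.

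The gap was narrow for threonine and arginine. Tars had 56.4, 53.6 and 51.2 TPM against 42.6, 45.4 and 38.6 TPM for Tars2, a log2 difference of 0.34 ± 0.09. Rars had 61.2, 57.2 and 60.7 TPM against 47.2, 54.4 and 56.7 TPM for Rars2, a difference of 0.18 ± 0.16 that was about the size of its spread. Aars and Aars2 could not be ordered, with 66.6, 60.2 and 57.1 TPM for Aars against 64.4, 71.7 and 61.4 TPM for Aars2. Leucine was the reversed pair, with 63.3, 63.4 and 78.4 TPM for Lars against 2656, 6552 and 7278 TPM for Lars2, a log2 difference of -6.19 ± 0.71. The 8 remaining pairs had differences from 0.85 for valine to 2.03 for glutamate.

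**Figure D2:**
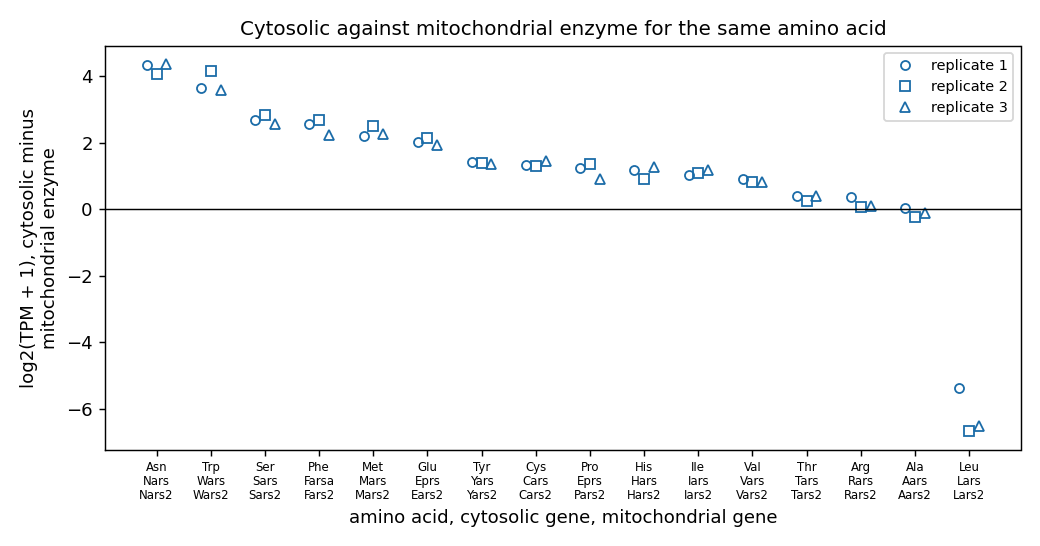
Difference in log2(TPM + 1), cytosolic minus mitochondrial enzyme, for 16 of the 17 amino acids, with 1 symbol per replicate (n = 3) and a line at no difference. Alanine straddles the line, leucine lies below it and the other pairs shown lie above it in each replicate, with leucine at -5.37, -6.67 and -6.52.

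Within the cytosol, mRNAs of the multisynthetase complex had a lower median than those of enzymes counted as free. Every cytosolic gene outside the list of complex members was counted as free. The 8 complex members, Eprs, Iars, Lars, Mars, Qars, Rars, Dars and the dual enzyme Kars, had medians of 58.3, 55.4 and 60.0 TPM in replicates 1, 2 and 3, against 70.8, 74.0 and 72.3 TPM for the 12 free cytosolic genes. The log2 difference, complex minus free, was -0.32 ± 0.08 (SD, n = 3) and negative in 3 of 3 replicates, with p = 0.25 by the exact sign-flip permutation test (0.33 adjusted). Single members crossed these sets, since Mars of the complex was above the free median and Tarsl2, counted here as free, was the lowest of all.

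Synthetases fall into classes I and II by the fold of their catalytic domain, and how far the classes lay apart in mRNA level depended on the gene length. The 9 class I cytosolic members had medians of 63.3, 63.4 and 67.8 TPM in replicates 1, 2 and 3, against 69.3, 73.5 and 67.4 TPM for the 9 class II members. The log2 difference, class I minus class II, was -0.11 ± 0.11 (SD, n = 3), with p = 0.5 by the exact sign-flip permutation test. It was -0.13, -0.21 and 0.01 in replicates 1, 2 and 3, so its sign differed between replicates. It was 0.19 ± 0.09 with CPM and -0.40 ± 0.08 with the capped transcript length.

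Farsa and Farsb encode the alpha and beta subunits of the cytosolic phenylalanyl-tRNA synthetase, which the enzyme holds in equal number. Farsa had 69.3, 73.5 and 67.4 TPM in replicates 1, 2 and 3, against 95.3, 98.4 and 99.9 TPM for Farsb. The log2 difference, Farsa minus Farsb, was -0.48 ± 0.07 (SD, n = 3), with p = 0.25 by the exact sign-flip permutation test. The direction depends on gene length, because the merged exons of Farsa span 4538 bp and its longest coding transcript 1826 bp, against 2620 and 2036 bp for Farsb. With the transcript length, capped at the merged exons, the difference was 0.46, with 124 ± 5.58 TPM for Farsa against 90.0 ± 1.71 TPM for Farsb.

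Merged exons of a gene include exons of all its annotated transcripts, so they exceed a single transcript where a gene has many. The ratio of the merged exons to the capped transcript length had a median of 1.44 for cytosolic and 1.48 for mitochondrial members, against 1.25 for detected nuclear protein-coding genes. Eprs and Cars2 had the widest ratios, 3.69 and 3.80. The cytosolic minus mitochondrial difference was 1.54 ± 0.15 under this length, and 15 of 17 pairs again had the higher level for the cytosolic enzyme in each replicate. They were not the same 15, since alanine joined at 0.58 ± 0.15 and threonine turned to -0.74 ± 0.09. The order of the widest gaps also changed. It was 3.64 ± 0.33 for tryptophan, 3.39 ± 0.17 for asparagine, 2.98 ± 0.22 for proline and 2.63 ± 0.12 for glutamate.

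**Figure D3:**
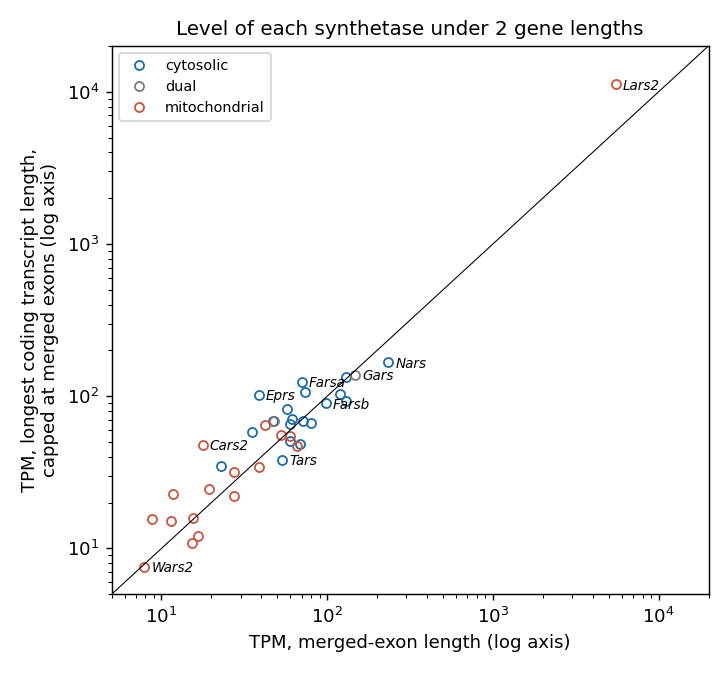
Mean TPM of each member (n = 3 replicates) with the merged-exon length on the x axis and with the longest coding transcript, capped at the merged exons, on the y axis, both log axes, and a line at equal values. Eprs, Farsa and Cars2 lie above the line and Lars2 is highest on both axes, at 5495 and 11165 TPM.

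Lars2 was far above every other synthetase and varied between replicates. The gene, ENSMUSG00000035202.8, lies on chromosome 9 of GRCm38 from 123366927 to 123462666 on the plus strand, with 11089 bp of merged exons, none of which overlaps another annotated gene. It had 245604, 320938 and 208158 counts in replicates 1, 2 and 3, and 138088, 333304 and 351471 normalized counts. In TPM it had 2656, 6552 and 7278, which placed it at rank 8, 2 and 1 among nuclear protein-coding genes in these replicates. Replicate 1 was low and replicates 2 and 3 were close to each other, and no replicate overlapped any other member.

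Lars2 alone took 0.510%, 1.25% and 1.31% of all counts in replicates 1, 2 and 3. Of the counts of the whole synthetase family it took 75.2%, 88.3% and 89.4%. Its level was 41.2, 91.4 and 119 times that of Aars2, the next mitochondrial member by mean level, and 42.0, 103 and 92.8 times that of Lars. The mean was 5495 ± 2486 TPM (SD, n = 3). Without Lars2 the median of the mitochondrial set was 19.1 ± 0.897 TPM, and the cytosolic minus mitochondrial difference was 1.74.

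The spread of Lars2 was not shared by its family. The coefficient of variation of its normalized count was 43.1%, and 1.97% of the 15955 detected genes had a coefficient at least as high. Without replicate 1 it was 3.75%. The other 37 members ran from 0.547% for Yars to 24.0% for Wars2, with a median of 7.53%, against 9.93% for all detected genes. The normalized count was lowest in replicate 1 for 4 of these 37, Cars, Rars2, Yars and Yars2, against 20.4% of detected nuclear protein-coding genes. It was lowest in replicate 2 for 12 and in replicate 3 for 21. The shares of all detected genes lowest in those replicates were not computed, so these counts are not read as a trait of the family. The summed normalized count of the 37 was 0.966 times that of replicate 1 in replicate 2 and 0.909 times in replicate 3.

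**Figure D4:**
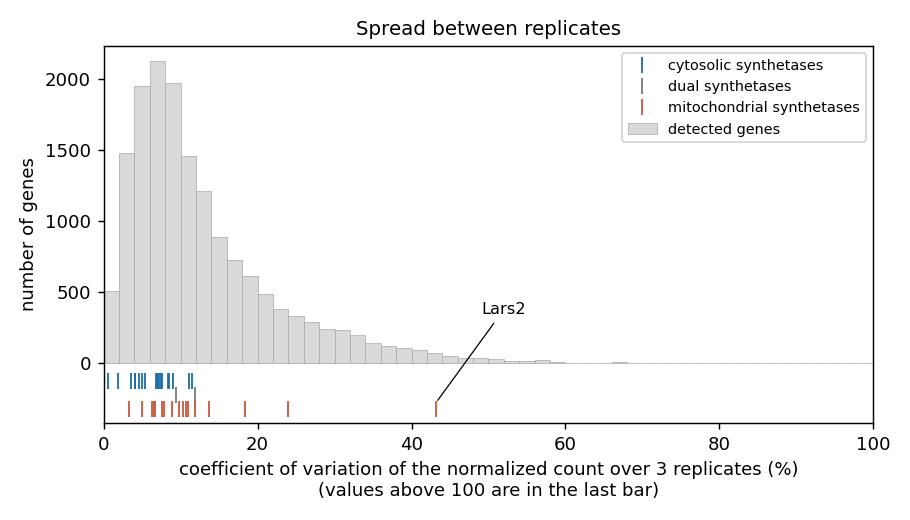
Histogram of the coefficient of variation of the normalized count over 3 replicates for 15955 detected genes, with ticks for the 38 synthetases by compartment. The tick of Lars2 is at 43.1% and those of the other members are at or below 24.0%.

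Among genes annotated as ribosomal or abundant RNA, some followed Lars2 across replicates. Relative to replicate 1, Lars2 was 2.41-fold in replicate 2 and 2.55-fold in replicate 3. CT010467.1, annotated as ribosomal RNA, was 2.61-fold and 2.86-fold in the same replicates, and Gm26917, annotated as a long noncoding RNA, was 2.54-fold and 2.55-fold. Gm26917 lies next to CT010467.1 on chromosome 17, at 39843013 to 39846341 against 39846353 to 39848827, so these genes may not be independent. The mitochondrial ribosomal RNAs moved less, with 1.41-fold and 1.89-fold for mt-Rnr1 and 1.02-fold and 1.38-fold for mt-Rnr2. Rn7sk, a small nuclear RNA, moved more, with 9.57-fold and 14.8-fold. CT010467.1 took 1.21%, 3.20% and 3.50% of counts in replicates 1, 2 and 3, and the count of Lars2 was 0.422, 0.390 and 0.376 times that of CT010467.1. Gm42418 and AY036118 were at 0 counts in each replicate. Both lie within the span of CT010467.1 on chromosome 17, so their 0 counts cannot be read as absence of their RNA. The part of ribosomal RNA in the counts of Lars2 was not tested.

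The longest exact word that any of 9 annotated Lars2 transcripts shared with CT010467.1 was 13 bases, and it was 12 bases for Gm26917, 14 for mt-Rnr1 and 12 for mt-Rnr2. Against all 356 transcripts annotated as nuclear or mitochondrial ribosomal RNA it was 16 bases. Gm44801, Gm22009, Gm10801 and Gm47018 were searched because they followed Lars2 closely across replicates. The longest shared word was 25 bases for Gm44801 and 20 for Gm22009, but 11 for Gm10801 and 13 for Gm47018. As these genes were picked for their likeness to Lars2, a link between shared words and that likeness was not tested. Of the 11160 words of 31 bases in Lars2, 0.923% also occurred in another gene, in 58 genes in all. These searches used annotated transcripts, and the full ribosomal RNA precursor was not used here.

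**Figure D5:**
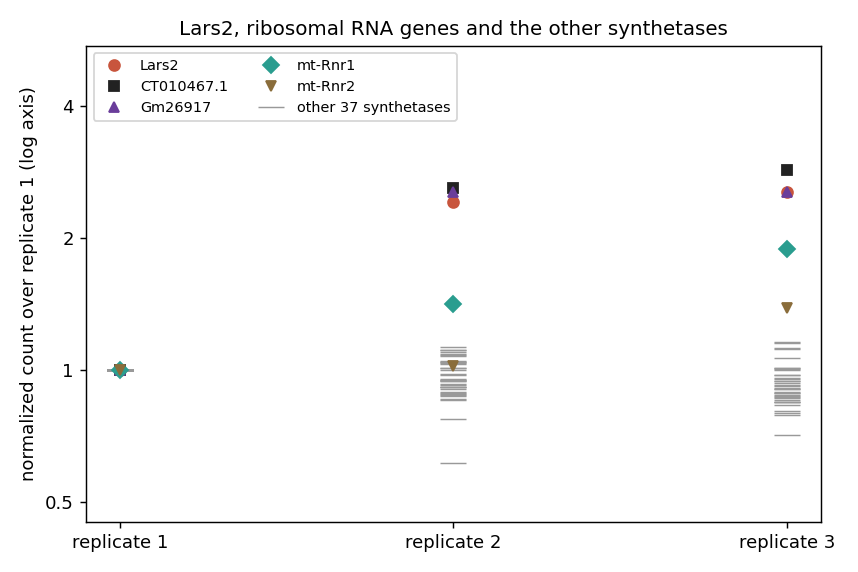
Normalized count over that of replicate 1 on a log axis for Lars2, 4 ribosomal or abundant RNA genes and the other 37 synthetases (grey bars). In replicates 2 and 3 Lars2, CT010467.1 and Gm26917 lie between 2.41 and 2.86, above mt-Rnr1, mt-Rnr2 and the other synthetases.

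By the smallest SD of the log2 ratio to Lars2 over the 3 replicates, the 5 genes most like it were Gm44801 at 0.01, Gm26917 at 0.04, Gm22009 at 0.06, Gm10801 at 0.06 and Gm47018 at 0.07. Gm44801 had 206, 273 and 175 counts in replicates 1, 2 and 3, and Gm22009 had 396, 524 and 316. For Gm44801 counting error alone gives 6.97%, 6.05% and 7.56% in these replicates, so its first place cannot be read as the closest likeness. CT010467.1 was in place 8 of 15954 genes, and Rars2, the closest other synthetase, in place 2734. This order rests on 3 samples and is a description. Of the 100 genes most like Lars2, 52 were of the annotation type TEC, transcripts that await experimental support, against 5.97% of detected genes, and 15 were antisense genes, against 3.60%. Only 6 of the 100 were protein-coding, against 78.2% of detected genes. Genes of the types TEC, antisense and sense intronic together took 1.22%, 1.52% and 1.62% of counts in replicates 1, 2 and 3.

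A normalized count at least 2-fold lower in replicate 1 than in each other replicate was found for 8 of 12471 detected nuclear protein-coding genes (0.0641%), and Lars2 was the only synthetase among them. The other 7 were Ptprb, Slco1a4, Gm10801, Xlr3b, Eng, 1700123L14Rik and Lpar6. Ptprb, Slco1a4 and Eng are genes of blood vessel endothelium, and the 3 endothelial markers had a median of 0.879, 1.71 and 7.09 TPM in replicates 1, 2 and 3. Of these markers, Pecam1 was under 1 CPM in at least 1 replicate. These 7 genes had at most 294 counts in any replicate, and their part in the pattern of Lars2 was not tested.

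Proteins that work with the synthetases were measured beside them, and all 15 listed partners were detected. The complex scaffolds Aimp1, Aimp2 and Eef1e1 had 30.7 ± 1.38, 23.7 ± 4.61 and 25.9 ± 2.96 TPM (SD, n = 3), below the 57.9 TPM of the complex enzymes per merged-exon length. For Aimp1 this depends on the length, since under the capped transcript length it had 109 ± 5.45 TPM, while Aimp2 and Eef1e1 had 23.6 ± 4.65 and 23.6 ± 2.67 TPM. Mammalian mitochondria make glutaminyl-tRNA through glutamyl-tRNA and an amidotransferase, whose subunits Qrsl1, Gatb and Gatc had 22.9 ± 2.76, 25.6 ± 0.452 and 122 ± 9.47 TPM. Gatc thus stood above its partner subunits in each replicate, with 119, 114 and 132 TPM in replicates 1, 2 and 3.

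Mtfmt, which formylates the initiator methionyl-tRNA of mitochondria, had 24.1 ± 2.72 TPM, Trnt1, which adds the CCA end to tRNAs, had 51.8 ± 7.04 TPM and Tufm, the mitochondrial elongation factor that delivers charged tRNAs, had 47.0 ± 7.26 TPM (SD, n = 3). Among factors that clear wrongly charged tRNAs, Dtd1 had 86.4 ± 8.38 TPM, Prorsd1 11.7 ± 2.71 TPM, Aarsd1 5.43 ± 1.51 TPM and Dtd2 10.7, 10.1 and 13.0 TPM in replicates 1, 2 and 3. Pstk and Sepsecs, which build selenocysteine on its tRNA, had 18.5 ± 2.32 and 17.2 ± 1.51 TPM, and 92.3 ± 11.1 and 16.3 ± 1.35 TPM under the capped transcript length.

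Many cytosolic synthetase genes are known targets of Atf4, the transcription factor of the amino acid response. Atf4 had 206, 241 and 206 TPM in replicates 1, 2 and 3, and its target Asns, asparagine synthetase, had 119, 106 and 121 TPM. Of the 8 listed genes of this response 7 were detected. Ddit3 had 47.6 ± 3.11 TPM, Psat1 22.2 ± 1.60 TPM, Phgdh 15.5 ± 4.25 TPM and Chac1 9.28 ± 0.516 TPM (SD, n = 3). Sesn2 had 18.5, 16.7 and 18.9 TPM in replicates 1, 2 and 3. Trib3, a target known for its response to strong stress, had 10, 3 and 1 counts and did not reach 1 CPM.

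The core of the response element that Atf4 binds with C/EBP factors, TGATGNAA, was searched on both strands of the RefSeq promoters of GRCm38.p6, from 250 bases before to 50 bases after each gene start. Of the 28 members matched to that table, 5 held it, which were 4 of 12 cytosolic, 1 of 2 dual and 0 of 14 mitochondrial members. Counted per gene in the same way, 4.51% of the 27025 genes of that table held it, and 3.97% of all 32851 promoters did. A site is shown for each of these 5 genes, which were picked for holding it. Aars holds another site, TTGCATCA on the strand of the gene, 112 bases before its start, which is not shown. Each line gives 30 bases, 5′ to 3′ on the strand of the gene, with the match in capitals.
Aars, chr8:111033840-111033869, plus strand: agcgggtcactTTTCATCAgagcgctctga
Gars, chr6:55037960-55037989, plus strand: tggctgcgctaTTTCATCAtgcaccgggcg
Iars, chr13:49682126-49682155, plus strand: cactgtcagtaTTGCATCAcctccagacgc
Tars, chr15:11399655-11399684, minus strand: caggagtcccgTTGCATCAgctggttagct
Yars, chr4:129189895-129189924, plus strand: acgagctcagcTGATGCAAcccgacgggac

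In the sites shown for Aars, Gars, Iars and Tars the match reads as the reverse complement on the strand of the gene, and in Yars it reads forward. The 5 genes with a match had a median of 61.3 TPM and ranged from 53.7 TPM for Tars to 147 TPM for Gars. The 9 cytosolic or dual genes of that table without the motif had a median of 57.3 TPM and ranged from 22.9 to 130 TPM, so the levels overlapped. A match is a run of letters and not a measured binding site.

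Some counts are uncertain because genes share bases. Exons of 15 members overlap those of another gene, and in 4 of them, among which are Iars2, Aars and Fars2, by over 10% of exon bases. Iars2 shares 2034 bp with Rab3gap2 on the opposite strand, and Rab3gap2 had a mean of 1926 normalized counts. Hars and Hars2 lie head to head and share 195 bp. The strand setting of the counting is not given in the sources used here, nor is the handling of reads on shared bases. Counts of genes on opposite strands may thus be mixed, or lost, where they overlap. Aars shares 1326 bp, 14.3% of its exon bases, with Exosc6 on its own strand, and Exosc6 was at 0 counts. That 0 does not show whether Exosc6 was expressed, and counts of Aars may be missing there. Of the words of 31 bases in Iars, 767 also occur in Gm4849, which had a mean of 60.6 normalized counts.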

How the data were processed

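The authors aligned reads with STAR and counted them with featureCounts on GRCm38, per the submitters' processing notes. Versions, the strand setting, and whether reads or fragments were counted are not given in the sources used here. The study's methods name GENCODE vM15 for its TRAP libraries and state no release for the sorted cells. The deposited values are raw counts per gene with the length of its merged exons in bp. All 3 replicates were used. GENCODE vM21 gave a symbol to 52489 of the 52636 gene IDs. Counts were divided by size factors from the median of ratios. TPM was computed over 21883 nuclear protein-coding genes, log2 values used a pseudocount of 1, and detection was at least 1 CPM in each replicate. Differences were taken within each replicate and tested with an exact two-sided sign-flip permutation test. The named genes were all members, listed partners and markers, and the 5 genes most like Lars2. Members, lists and roles were chosen with earlier results of these data known, and the promoter motif and the capped transcript length after values were seen. Of the 38 members, 10 were not matched to the RefSeq promoter table, among them Cars, Hars, Hars2, Lars, Nars, Rars, Vars and Wars. Values of 1 member entered the counts and set medians and are not reported here singly. The replicates were separate pools of mice. Alternatives were the genes behind TPM, CPM, TMM from edgeR 4.0.16 in R 4.3.3, the gene length, the pseudocount of 0.1, the set summary, the assignment of Gars and Kars, and leaving out Lars2 or each replicate. Python 3.11.15 with numpy 2.4.6, pandas 2.3.3, scipy 1.17.1 and matplotlib 3.10.9 was used. The size factors, the coefficient of variation and the likeness to a reference gene were checked on simulated counts, and the set differences were not.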

Additional observations from a re-analysis of the deposited data

How the results depend on the processing

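Of 70 alternatives over 9 results, 48 left the value within its spread or the count within 1.5 times, 18 moved it and 4 turned its direction. No paired analysis was possible because all samples belong to a single group. The cytosolic minus mitochondrial difference, 1.68 on the log2 scale, was positive in all alternatives tried: 1.58 with TPM over all genes, 1.19 with CPM, 1.48 with TMM counts per kb, 1.54 with the longest coding transcript, capped or not, 1.72 with a pseudocount of 0.1, 1.14 with means, 1.29 with Gars and Kars as mitochondrial, and 1.74 without Lars2. The complex minus free difference, -0.32, was -0.49 with CPM and -0.48 with either transcript length. The class I minus class II difference, -0.11, was 0.19 with CPM and -0.40 with either transcript length. Farsa minus Farsb, -0.48, was 0.30 with CPM and 0.46 with either transcript length. Lars2 had 1644 TPM over all genes, 11265 TPM with the transcript length and 11165 TPM with that length capped. Its coefficient of variation was 3.75% to 61.6% with a replicate left out. Whether and by which length counts were divided thus set the direction for Farsa and Farsb, and replicate 1 set the spread of Lars2. With 3 replicates no difference could pass a threshold of 0.05. The capped length was chosen after seeing the data.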
